A study of Gasterosteus aculeatus with 53 samples.

Results

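Of 22456 Ensembl gene identifiers counted in female threespine stickleback brains, 80 stood highest in both populations of Paxton Lake relative to limnetic females of Priest Lake. They were chosen by measured values. Counts were scaled to a library total of 1000000 (CPM), genes with a mean of at least 1 CPM were kept (17565 genes), and log2(CPM + 0.5) was averaged per population. Of the 14520 genes whose 2 Paxton means differed by less than 0.3 on this log2 scale, the 80 with the highest score were taken, where the score is the smaller of the differences Paxton benthic minus Priest limnetic and Paxton limnetic minus Priest limnetic. The difference between the lakes is therefore a description in what follows and carries no test. Treatment and trial number played no part in the choice, and those were tested.

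Each library was the whole brain of 1 reproductive female. Paxton benthic (bottom-feeding) females, Paxton limnetic (open-water) females and Priest limnetic females had each met a courting male of their own species and lake (conspecific male), a courting male of the other species of the same lake (heterospecific male) or a female of their own population (social control). The fish had been collected from lakes on an island in British Columbia and brought into aquaria, and no ages are given in the sources used here. Of 53 labelled libraries the 51 that the study analysed were used: 16 Paxton benthic (5 conspecific, 5 heterospecific, 6 control), 18 Paxton limnetic (6 in each) and 17 Priest limnetic (5, 6 and 6). Total counts ranged from 23849743 to 52788436 per library, and the 80 genes together held between 0.0490% and 0.178% of the counts of a library. The Priest limnetic social control of trial 72 stood apart from the rest of its population in many members, and some values that rest on it are given with and without it.

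Benthic and limnetic sticklebacks are young species that live side by side in a few lakes and are reproductively isolated largely by the mate choice of females. The limnetic fish of different lakes resemble each other in form and courtship, while fish of 1 lake share its water, its food web and, where the species still hybridize, some of their genes. Benthic females of Priest Lake are not among the libraries, so a difference between the lakes and a difference of Priest limnetic fish from all others cannot be told apart here. Expression measured in a whole brain sums over neurons, glia, blood vessels, blood and adhering tissue, so that fewer cells of a type and less RNA per cell cannot be told apart. Gene names do not accompany the identifiers in the table, and no identifier matched the annotation used here, so the 80 genes are given by identifier, without position, function or sequence, and the labelled tissue could not be checked against cell type markers. Gene lengths are not in the table either, so levels are compared between libraries and not between genes.

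The median member was 1.83-fold higher in Paxton than in Priest fish, and the range over the 80 was 1.55-fold to 6.67-fold. Folds here are back-transformed differences of mean log2(CPM + 0.5), the mean of the Paxton populations minus Priest (median 0.87). Where levels are low, the added 0.5 makes such a fold smaller than the ratio of the CPM themselves. Over all 17565 genes the median log2 difference was 0.00 (-0.0027). Counts were low for many members, in CPM not corrected for gene length: 41 of the 80 (51.3%) had a mean under 5 CPM, where 17.5% of all genes did, and the median of the members' means was 4.59 CPM against 22.0 CPM over all genes. Individual fish also differed more in these genes. The SD of log2(CPM + 0.5) within populations had a median of 0.58 over the members and 0.22 over all genes. The rule itself can favour genes of low and variable level, so nothing is read from these contrasts. In 62 of the 80 genes the Paxton benthic mean lay above the Paxton limnetic mean. These were 28 of the 29 genes of a group that varied together among fish, described below, and 34 of the other 51. The members are therefore not independent in this count. No share over all genes is given beside it, and nothing is read from it. Within each treatment taken alone both Paxton populations had the higher mean in 79 of the 80. The exception was ENSGACG00000002933 with a conspecific male (difference of mean log2(CPM + 0.5), Paxton minus Priest, -0.16). The rule averaged over these same libraries, so the direction is largely set by the choice and nothing is read from this count.

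**Figure D1:**
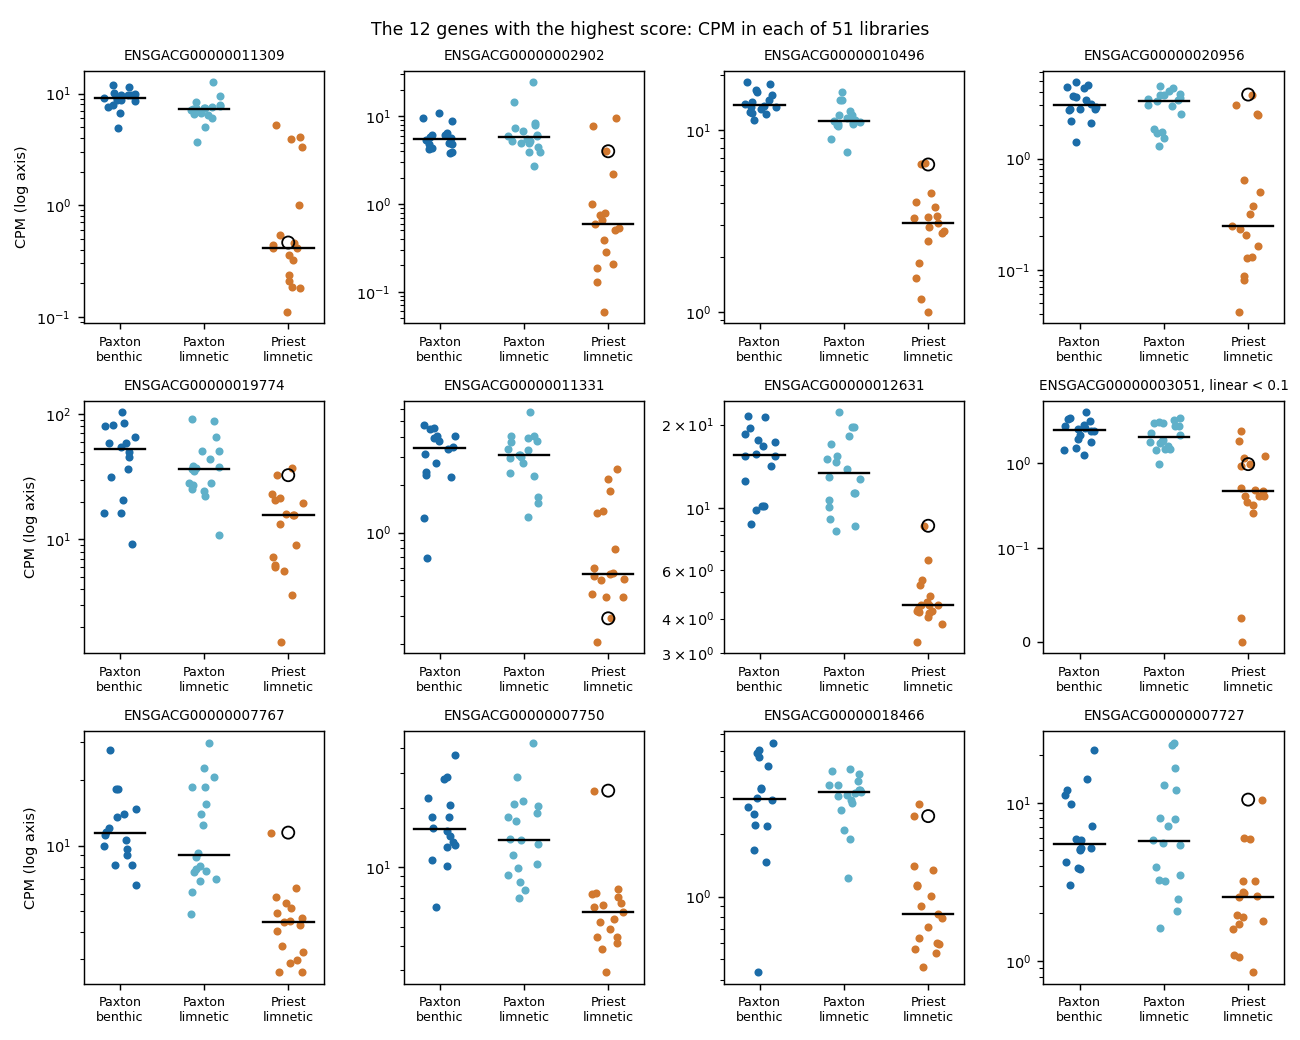
CPM of the 12 genes with the highest score in each of 51 libraries, by population, on log axes (the panel of ENSGACG00000003051 is linear below 0.1 CPM, since 1 Priest library held no count). Points are libraries, bars are medians and the open ring marks the Priest limnetic library of trial 72; medians are lower in Priest fish in every panel, but only ENSGACG00000010496 has all 34 Paxton points above all 17 Priest points.

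The gene with the highest score was ENSGACG00000011309 (score 2.59). Its levels ran from 4.88 through a median of 9.08 to 12.01 CPM in Paxton benthic fish and from 3.67 through 7.34 to 12.7 CPM in Paxton limnetic fish. Priest limnetic fish had 0.111 to 5.26 CPM with a median of 0.414. The Priest libraries fell into unequal sets: 13 lay at or below 1.01 CPM and 4, those of trials 13, 38, 44 and 68, at or above 3.31 CPM. Of these 4, 3 lay within the Paxton range and that of trial 13 just below it, and 31 of the 34 Paxton libraries lay above every Priest library.

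Large steps between single Priest fish were also present in ENSGACG00000002902 and ENSGACG00000020956. For ENSGACG00000002902 (score 2.13), Paxton benthic fish had 3.86 to 10.9 CPM (median 5.56), Paxton limnetic fish 2.74 to 24.4 CPM (median 5.76) and Priest limnetic fish 0.0593 to 9.43 CPM (median 0.596). The top Priest fish exceeded most Paxton fish, and only 3 Paxton libraries lay above all of Priest. For ENSGACG00000020956 (score 1.69), the ranges were 1.42 to 4.86 CPM in Paxton benthic (median 3.02), 1.295 to 4.45 CPM in Paxton limnetic (median 3.32) and 0.0419 to 3.76 CPM in Priest limnetic fish (median 0.245). In Priest, 13 libraries had at most 0.645 CPM and the other 4, of trials 18, 29, 53 and 72, at least 2.46 CPM, which is within the Paxton range.

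ENSGACG00000010496 (score 1.80) separated the lakes fully, with 11.3 to 18.4 CPM in Paxton benthic (median 13.8), 7.61 to 16.3 CPM in Paxton limnetic (median 11.2) and 1.00 to 6.58 CPM in Priest limnetic fish (median 3.10). ENSGACG00000010774 did so with a small spread. It had 76.2 to 137 CPM in Paxton benthic (median 114), 93.8 to 171 CPM in Paxton limnetic (median 134) and 41.5 to 63.4 CPM in Priest limnetic fish (median 50.7), a 2.38-fold difference with an SD of log2(CPM + 0.5) within populations of 0.21. The last of this kind was ENSGACG00000010779, listed in the next row of the table, with 34.1 to 56.5 CPM in Paxton benthic (median 41.9), 35.2 to 64.5 CPM in Paxton limnetic (median 47.4) and 19.7 to 32.0 CPM in Priest limnetic fish (median 26.1). In these 3 members every Paxton library lay above every Priest library. Over all 17565 genes 0.0171% (3 genes) did so, and all 3 are members. The contrast is the one the members were chosen by, so nothing is read from this count. Without the Priest limnetic library of trial 72 the count was 4 of the 80, with ENSGACG00000012631 added, and 0.0342% (6) of all genes.

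ENSGACG00000012631 (score 1.42) had 8.76 to 21.5 CPM in Paxton benthic (median 15.5), 8.27 to 22.1 CPM in Paxton limnetic (median 13.4) and 3.30 to 8.64 CPM in Priest limnetic fish (median 4.49). Its highest Priest value, 8.64 CPM, was that of trial 72, and the next Priest fish had 6.49 CPM. ENSGACG00000019774 (score 1.61) varied widely in all populations, with 9.20 to 103 CPM in Paxton benthic (median 52.3), 10.8 to 91.4 CPM in Paxton limnetic (median 36.6) and 1.52 to 37.2 CPM in Priest limnetic fish (median 15.7). Its populations overlapped widely. ENSGACG00000011331 (score 1.46), in the row after ENSGACG00000011309, had medians of 3.40, 3.09 and 0.545 CPM in the same order. ENSGACG00000003051 (score 1.27) had medians of 2.504, 2.06 and 0.471 CPM, and ENSGACG00000018466 (score 1.19) had 2.93, 3.16 and 0.826 CPM. In these last 3 genes between 16 and 24 of the 34 Paxton libraries exceeded all Priest libraries.

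The remaining genes of the first 12, ENSGACG00000007767, ENSGACG00000007750 and ENSGACG00000007727, had scores of 1.26, 1.21 and 1.17. In all 3 the Priest library of trial 72 stood above the other 16 Priest libraries. For ENSGACG00000007750 it held 24.4 CPM, where the next Priest fish had 7.78 CPM and Paxton fish ranged from 6.30 to 42.8 CPM. Only 5 Paxton libraries then lay above all of Priest, but 31 of 34 lay above the 16 others.

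At the lower end of the choice, the last genes inside were ENSGACG00000013753 (score 0.625), ENSGACG00000014148 (0.624) and ENSGACG00000012424 (0.615). The first outside were ENSGACG00000008506 (0.613), ENSGACG00000000899 (0.607) and ENSGACG00000004319 (0.606). No step separates them, so the number 80 is a matter of the rule. With both differences reversed, 35 genes within the same limit were lower in both Paxton populations by a log2 difference of 1 or more, where 15 were higher.

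Spread among fish divided the members as much as the difference of the means did. The smallest SDs of log2(CPM + 0.5) within populations were 0.20 for ENSGACG00000010779, 0.21 for ENSGACG00000010774 and 0.31 for ENSGACG00000002832, which had medians of 11.5, 9.65 and 5.84 CPM in Paxton benthic, Paxton limnetic and Priest limnetic fish. The largest were 0.88 for ENSGACG00000007727, 0.96 for ENSGACG00000019774 and 1.31 for ENSGACG00000019210. The last gene was high or nearly absent among Paxton fish. In Paxton benthic females 4 libraries had at most 0.204 CPM and 12 had at least 2.30 CPM, up to 19.9, and in Paxton limnetic females 4 had at most 0.473 CPM and 14 at least 1.56 CPM. Priest limnetic fish lay between, at 0.766 to 3.73 CPM, with no comparable gap. ENSGACG00000019210 thus had lower as well as higher Paxton values than any Priest fish, although both Paxton means were higher. In 3 of the 80 genes the SD within populations was larger than the lake difference. For 8 members at least 1 Priest library held no count, and for none did a Paxton library. In ENSGACG00000003051, ENSGACG00000000008, ENSGACG00000011117, ENSGACG00000000231 and ENSGACG00000014148 the only such library was that of trial 71. The members were chosen for low Priest levels and no share over all genes is given, so nothing is read from this count.

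Members that varied together among fish were sought by removing the mean of each of the 9 groups of population and treatment and correlating the residuals of log2(CPM + 0.5) across the 51 libraries. All pairs share these libraries, and with them their depth and composition. Genes were joined by average linkage up to a distance (1 minus r) of 0.5. One group of 29 genes stood out. Its median r over 406 pairs was 0.775 (range 0.470 to 0.987), against 0.061 among the other 51 genes. At a distance of 0.4 the largest group again had 29 genes and at 0.6 it had 32, and no other group had more than 3. These correlations describe the libraries and were not tested.

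**Figure D2:**
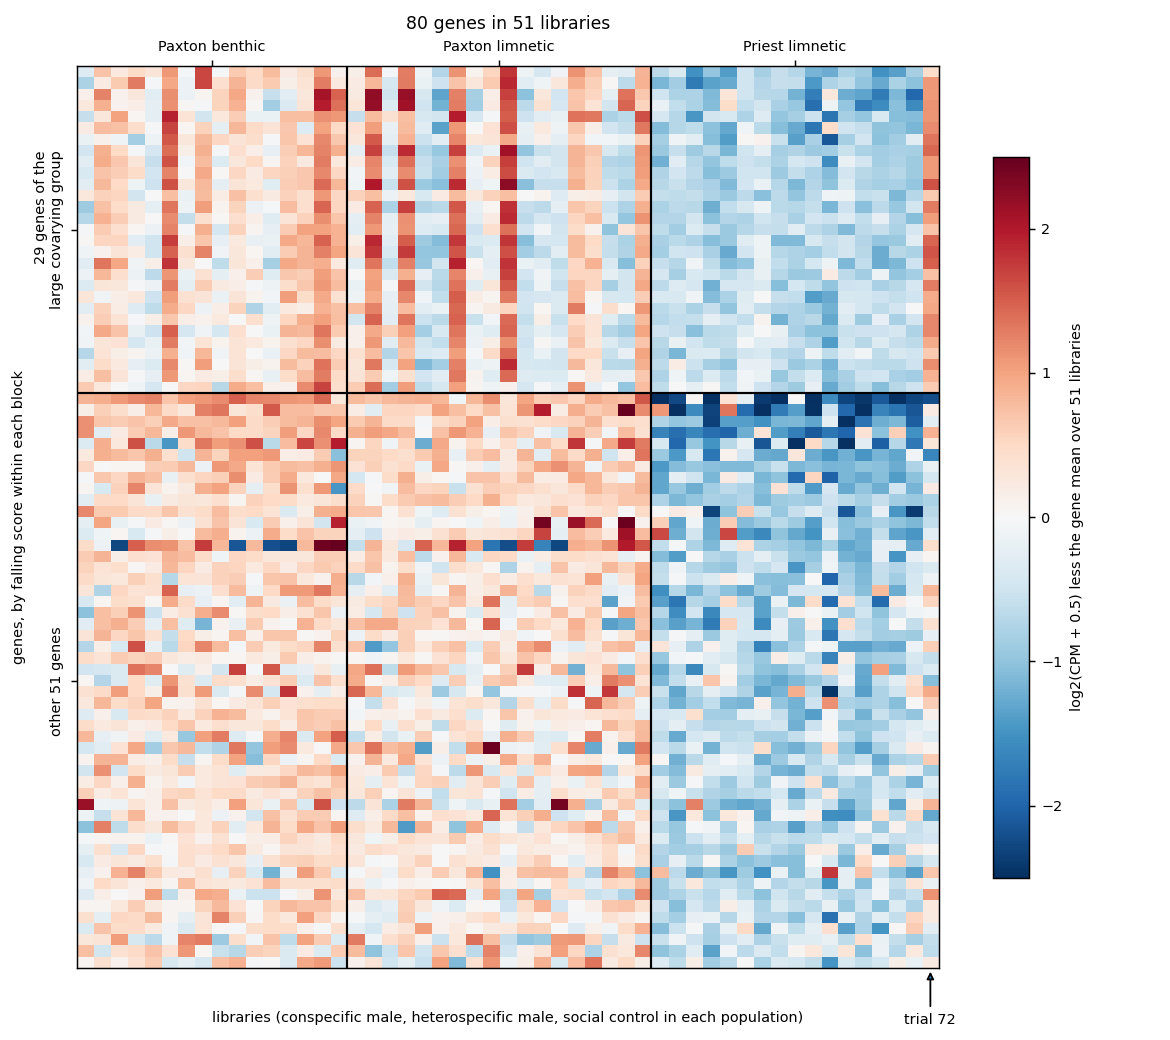
Log2(CPM + 0.5) of the 80 genes (rows) in 51 libraries (columns), each gene less its mean over libraries, red high and blue low. The upper 29 rows are the large covarying group, in which whole columns are red or pale together within Paxton fish and the Priest limnetic library of trial 72 (arrow) is red, while the lower 51 rows show a step at the Priest border with little shared pattern among fish.

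The 29 genes rose and fell together from fish to fish within the Paxton populations. Their mean log2(CPM + 0.5) ran from 2.31 to 3.803 in Paxton benthic libraries (median 3.01) and from 1.92 to 4.07 in Paxton limnetic libraries (median 2.54). In 16 of the 17 Priest limnetic libraries it stayed within 1.71 to 2.21. The remaining Priest library, the social control of trial 72, had 3.64, a level that only 2 Paxton benthic and 4 Paxton limnetic libraries exceeded. All 16 Paxton benthic and 13 of the 18 Paxton limnetic libraries lay above the other 16 Priest libraries, and 5 Paxton limnetic libraries lay among them. A median difference of 1.83-fold in this group therefore joins fish near the Priest level with fish well above it.

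Summed over the 29 genes, the level was 226 to 769 CPM in Paxton benthic, 162 to 1040 CPM in Paxton limnetic and 148 to 234 CPM in the 16 Priest limnetic fish other than that of trial 72, which had 718 CPM. The member of the group with the highest mean CPM, ENSGACG00000007959, had 30.4 to 133 CPM in Paxton benthic (median 58.3), 21.0 to 208 CPM in Paxton limnetic (median 39.0) and 19.9 to 133 CPM in Priest limnetic fish (median 25.9). Without trial 72 its highest Priest value was 38.6 CPM. ENSGACG00000001123 had medians of 42.6, 28.8 and 21.1 CPM in the same order, and ENSGACG00000007843 had 44.3, 28.3 and 18.5 CPM. Trial 72 was the highest Priest library in all 29 genes of the group and in 12 of the other 51. The group was formed by correlations that include this library, so the count among the 29 is not independent of it.

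The high fish were not those of 1 treatment. In Paxton limnetic females the 4 highest libraries all had a courting male. Those of trials 17 and 40 had a conspecific male and those of trials 26 and 41 a heterospecific male. The highest fish of each treatment had a mean log2(CPM + 0.5) of the group of 3.86 (conspecific male), 4.07 (heterospecific male) and 3.45 (social control). In Paxton benthic females the 2 highest were trial 89, a social control, and trial 14, with a heterospecific male. With the means of the 9 groups removed, the mean level of the group across the 51 libraries had an r of -0.058 (Spearman's rho -0.046) with log2 total counts and -0.127 (rho -0.148) with trial number. Without the 2 libraries farthest from the median depth or trial number, r was -0.086 and -0.099. What other genes shared the pattern was also looked at. Of the 17565 genes, 147 had an r of at least 0.8 with the mean of the group, 24 of them members. Of the 123 others, 73 were not members because the Paxton means differed by 0.3 or more and 50 because the score was lower. Of the 123, 117 were higher on average in both Paxton populations, and in all 123 trial 72 was the highest Priest library. They were picked by likeness to the group over libraries that include trial 72, so nothing is read from its place in them. No gene had as strong a correlation in the opposite direction. Since no identifier could be named, the part of any cell type or tissue in this pattern was not tested.

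**Figure D3:**
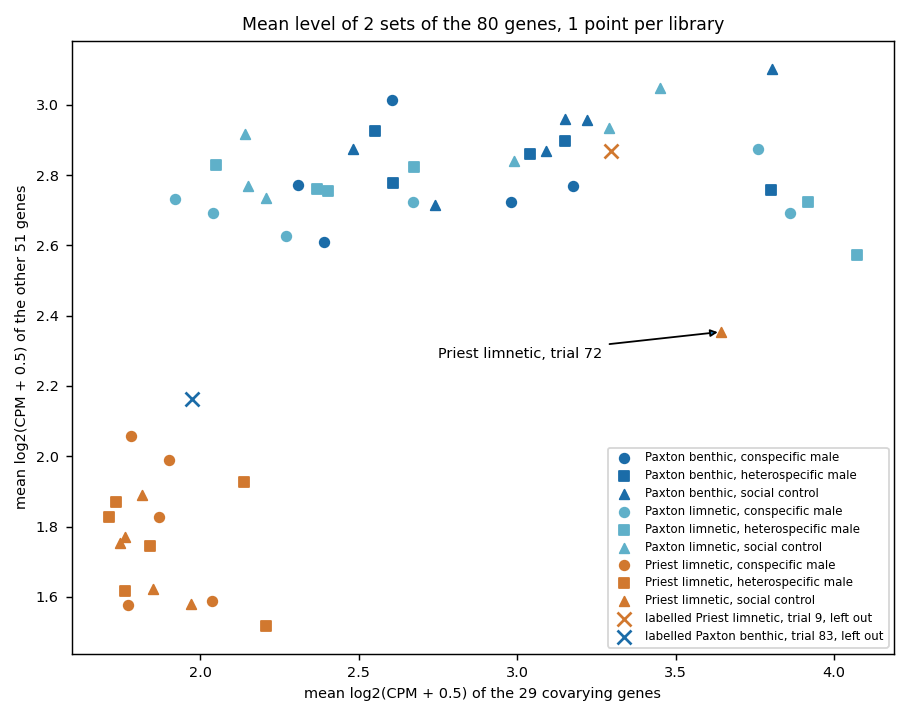
Mean log2(CPM + 0.5) of the 29 covarying genes (horizontal) and of the other 51 genes (vertical), 1 point per library, with colour for population and shape for treatment. Crosses are the libraries of trials 9 and 83 that were left out. On the vertical axis Paxton libraries lie from 2.57 to 3.10 and Priest libraries from 1.52 to 2.35; on the horizontal axis the populations overlap, with trial 72 at 3.64.

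The mean of the other 51 genes varied less among the fish of a Paxton population. The 29 were grouped for varying together and the 51 are the rest, so the grouping largely sets this. Gene by gene, the median SD of log2(CPM + 0.5) within populations was 0.64 over the 29 genes and 0.53 over the 51. On the mean of the 51 genes, Paxton benthic libraries lay between 2.61 and 3.10 and Paxton limnetic libraries between 2.57 and 3.05. Both lay above all Priest limnetic libraries, which lay between 1.52 and 2.35. The genes were chosen by this contrast, so nothing is read from the separation. The highest Priest value was again that of trial 72, and the next was 2.06. No large set of these genes varied together. They held 11 small groups of 2 or 3 genes and 26 genes on their own. ENSGACG00000002902, ENSGACG00000003003 and ENSGACG00000002933 formed one (r from 0.621 to 0.940), ENSGACG00000001261, ENSGACG00000002832 and ENSGACG00000002749 another (r from 0.850 to 0.936), and ENSGACG00000000968 and ENSGACG00000001758 a pair (r = 0.865). ENSGACG00000001261 had medians of 134, 115 and 60.5 CPM in Paxton benthic, Paxton limnetic and Priest limnetic fish, and ENSGACG00000002749 had 124, 109 and 60.3 CPM.

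Some members that varied together were listed close to each other. Over all 3160 pairs of members 454 (14.4%) had an r of at least 0.5. In 13 pairs of members, made up of 15 genes, the identifiers stood at most 5 rows apart in the deposited table, and 12 of these pairs had an r of at least 0.5 (median 0.621, range -0.014 to 0.981). Of the 13 pairs, 6 lay within the large covarying group, whose genes were joined by their r. The pairs among ENSGACG00000002902, ENSGACG00000002933 and ENSGACG00000003003 lay within a small group joined in the same way. Row distance is thus not told apart from group membership, and nothing is read from the share. ENSGACG00000007727 and ENSGACG00000007748, in adjacent rows, had the highest r, 0.981, ENSGACG00000002902 and ENSGACG00000002933 had 0.940, and ENSGACG00000007750 and ENSGACG00000007767 had 0.875. For ENSGACG00000011309 and ENSGACG00000011331 r was 0.659 and for ENSGACG00000010774 and ENSGACG00000010779 it was 0.607. The sources used here do not say what the row order stands for, nor whether reads were counted by strand, so reads shared between overlapping or near-identical genes cannot be told apart from separate transcripts in such pairs.

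The first question independent of the choice was whether these genes responded to the courting male. Brains were taken when the trial ended, at spawning or after a set number of minutes, so the tests concern only a short exposure. In edgeR's quasi-likelihood test over 20011 genes, all 80 members included, 1 member passed an adjusted p of 0.1 (Benjamini-Hochberg) in the 9 comparisons of treatments within populations. It was ENSGACG00000020956 in Priest limnetic females, which was lower with a conspecific male than in the social control. The 5 fish with a conspecific male had 0.0818, 0.128, 0.129, 0.232 and 0.245 CPM. With a heterospecific male the 6 values ran from 0.0419 to 2.46 CPM (median 0.291), and in the 6 controls from 0.0884 to 3.76 CPM (median 1.57). The log2 fold change of conspecific male minus social control was -3.36 (standard error 0.66, adjusted p = 0.0412, edgeR). The groups overlapped, with 1 control fish below 4 of the 5 fish with a conspecific male, and 3 of the 6 controls lay at the Paxton level. In Paxton fish the gene showed no such step (lowest group median 2.79 CPM, highest 3.64 CPM). The call was lost when the conspecific library of trial 15, 52 or 68 was left out (highest adjusted p 0.156, edgeR) and with all 53 libraries (log2 fold change -1.23, adjusted p = 0.994). Without the control of trial 72 it was -3.0 (adjusted p = 0.0897, edgeR). The test of the lake difference in the response to a courting male, Priest minus Paxton, gave a log2 value of -2.48 for this gene (standard error 0.57, adjusted p = 0.535, edgeR), so the response was not shown to differ between the lakes. DESeq2 gave an adjusted p of 0.0420 for the same difference.

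**Figure D4:**
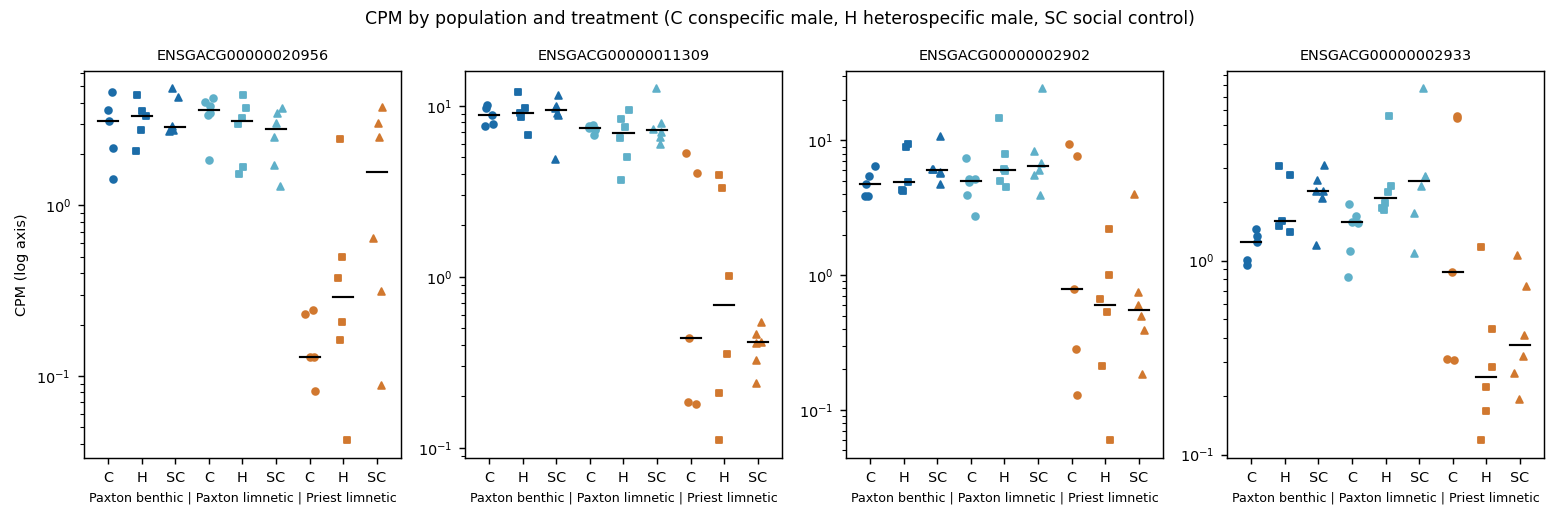
CPM on log axes of 4 members in each of the 9 groups of population and treatment, with points for libraries and bars for medians (C, conspecific male; H, heterospecific male; SC, social control). In ENSGACG00000020956, ENSGACG00000011309 and ENSGACG00000002902 a few Priest limnetic libraries lie at the Paxton level and the others below the Paxton range. In ENSGACG00000002933 the populations lie closer: 9 of 16 Paxton benthic libraries have at most 1.61 CPM, and 15 Priest libraries at most 1.17 CPM. Only ENSGACG00000020956 passed the test, between conspecific male and social control (log2 fold change -3.36).

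No member was called in the other 8 comparisons within populations. The share of all tested genes called was 0.02% for Priest limnetic females with a conspecific male against the control, 0.005% for conspecific against heterospecific male and 0% for heterospecific male against the control. In Paxton limnetic females these shares were 0.075%, 0% and 0%, and in Paxton benthic females 0.00999%, 0.015% and 0.03%. A share of this size over 80 genes would be less than 1 gene. The study, with DESeq2 and the same threshold, reported more genes in each population for a conspecific male against either other treatment. The shares here are those of edgeR. At an unadjusted p under 0.05 the members numbered 10 (12.5%), 7 (8.75%) and 9 (11.3%) in the Priest comparisons, where 4.66%, 3.34% and 7.70% of all genes passed. They numbered between 0 and 3 (0% to 3.75%) in each of the 6 Paxton comparisons, where 2.85% to 7.45% of all genes passed. Since 29 members vary as 1 group, they are not independent in these counts. Trial 72, the highest Priest library in all 29, enters both Priest comparisons with the control. Nothing is read from these counts.

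Other Priest differences between treatments rested on a few fish. ENSGACG00000002933 had 0.308, 0.310, 0.871, 5.46 and 5.56 CPM in the 5 fish with a conspecific male, 0.119 to 1.17 CPM in the 6 with a heterospecific male and 0.195 to 1.07 CPM in the 6 controls. Only the fish of trials 11 and 68 stood apart. The log2 fold changes were 2.62 against the heterospecific male (standard error 0.56, adjusted p = 0.179, edgeR) and 2.31 against the control (standard error 0.55, adjusted p = 0.185, edgeR), while DESeq2 gave adjusted p-values of 0.00881 and 0.0153. In edgeR the adjusted p-values were 0.181 and 0.0897 without trial 72, 0.0387 and 0.0557 with trial number as a covariate, and 0.422 and 0.548 with all 53 libraries. The same fish had the highest Priest values of ENSGACG00000002902, 7.73 and 9.43 CPM. ENSGACG00000011309 was below 0.55 CPM in all 6 controls but reached 5.26 CPM with a conspecific and 3.94 CPM with a heterospecific male. Its log2 fold change of conspecific male minus control was 2.34 (standard error 0.60, adjusted p = 0.240, edgeR; 0.0492 in DESeq2).

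With the populations pooled, no member was called for courting male against social control or for conspecific against heterospecific male, and none for a lake difference in the response to a courting male. In each of these 3 edgeR tests 0% of all genes were called. At an unadjusted p under 0.05 there were 6, 1 and 9 members (7.5%, 1.25% and 11.3%), where 4.503%, 5.14% and 6.22% of all genes passed. DESeq2 called 0, 0 and 1 member, the last being ENSGACG00000020956. The share of all genes called by DESeq2 is not given beside this, so nothing is read from the count. The median log2 fold change of the 80 for courting male minus control was -0.13, with 20 of them above 0, where the median over all tested genes was 0.00 (-0.0023). Because 29 of the 80 vary as 1 group, the members are not independent of each other in these counts, and nothing is read from them.

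The second question was whether levels moved with trial number. The sources used here do not state how trial numbers follow the date, and trials were run from May to August. The sample code gives trial 88 for a Paxton benthic fish with a conspecific male whose title gives 89, and the code was used. The trend was fitted as 1 slope beside the means of the 9 groups. Over all tested genes 17.6% (3523) had a trend, 1956 rising and 1567 falling. Of the members 11 (13.8%) did, 10 rising and 1 falling. The share is near the background, so nothing is read from the count. ENSGACG00000001358 had the smallest adjusted p, with a log2 slope of 0.11 per 10 trials (standard error 0.02, adjusted p = 0.000576, edgeR). Its levels ran from 11.6 to 20.7 CPM in Paxton benthic, 7.87 to 21.4 CPM in Paxton limnetic and 5.27 to 13.7 CPM in Priest limnetic fish. The slope was positive in each population alone, at 0.08, 0.14 and 0.09 per 10 trials. The gene was called by 1 slope over these same libraries, so the shared sign is largely set by the call.

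ENSGACG00000002902 rose by a log2 of 0.20 per 10 trials (standard error 0.06, adjusted p = 0.0280, edgeR), ENSGACG00000014073 by 0.15 (standard error 0.05, adjusted p = 0.0298) and ENSGACG00000005576 by 0.10 (standard error 0.03, adjusted p = 0.0272). These 3 and ENSGACG00000001358 were called in every setting tried. The other risers were ENSGACG00000002933, ENSGACG00000012508, ENSGACG00000016281, ENSGACG00000018466, ENSGACG00000019055 and ENSGACG00000020888, with log2 slopes from 0.06 to 0.16. ENSGACG00000014435 fell by 0.11 per 10 trials (standard error 0.04, adjusted p = 0.0805, edgeR). For all 11 the slope had the same sign in the 3 populations. They were called by 1 slope common to the populations, so the shared sign is largely set by the call. For ENSGACG00000016281 the slope in Paxton limnetic fish was only 0.003 per 10 trials. None of the 11 belonged to the group of 29 genes. With the means of the 9 groups removed, the mean log2(CPM + 0.5) of the other 51 genes had an r of 0.490 with trial number across the 51 libraries (rho 0.530, r = 0.460 without the 2 farthest trials). Within populations r was 0.629 in Paxton benthic (n = 16), 0.412 in Paxton limnetic (n = 18) and 0.511 in Priest limnetic libraries (n = 17). For the 29 genes it was -0.149, -0.249 and 0.061. These values are a description, without a test, and no like value over all genes is given beside them.

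**Figure D5:**
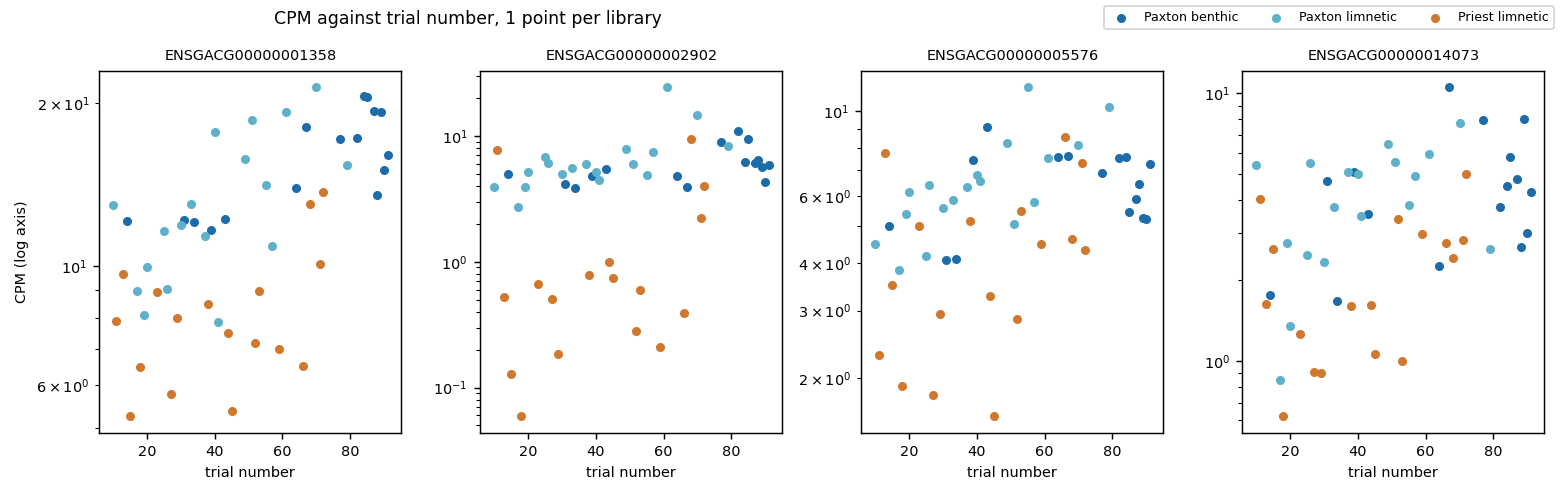
CPM on a log axis against trial number for the 4 members whose trend was called in every setting tried, 1 point per library, coloured by population. Later trials lie higher within populations, and Paxton benthic libraries are mostly late (median trial 79.5). Priest limnetic points lie mostly lower, but the genes were chosen for low Priest means, so nothing is read from this.

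Trial numbers were not spread evenly. Paxton benthic fish had the latest trials (median 79.5), and those of Paxton limnetic (38.5) and Priest limnetic fish (44) were earlier. The part of trial number in the lake difference was not tested. The number of members called fell to 6 without the Paxton limnetic control of trial 79 and to 7 with all 53 libraries.

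The libraries left out by the study, for having seemingly been swapped, were placed against the 80 genes without having entered the choice. The study judged them swapped by their place on the main axes of variation in these same expression data. Their place here is therefore not an independent check, and the 29 covarying genes are not independent of each other in the counts. The library labelled Paxton benthic, trial 83, was nearer to the Priest mean than to the mean of the Paxton populations in 62 of the 80 genes, and the library labelled Priest limnetic, trial 9, was nearer to Paxton in 74. For ENSGACG00000010774 the former had 52.7 CPM, within the Priest range, and the latter 114 CPM, within the Paxton range. For ENSGACG00000010496 they had 3.14 and 12.9 CPM, and for ENSGACG00000011309 0.268 and 10.3 CPM. In the group of 29 genes, trial 83 was nearer to Priest in 26 and trial 9 nearer to Paxton in all 29. ENSGACG00000002902 went the other way in the library of trial 83, with 21.7 CPM. Priest limnetic trial 72, which was kept, was nearer to Paxton in 55 of the 80, in all 29 genes of the group and in 26 of the other 51. Its own values entered the choice of the 80 and the forming of the group. For ENSGACG00000010774 trial 72 had 52.4 CPM and for ENSGACG00000011309 0.462 CPM, both within the range of the other Priest fish.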

How the data were processed

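The authors deposited raw read counts per gene, without normalization, for 53 libraries. Per the labels and the study's methods, lanes were combined (8 lanes), reads were trimmed with Trimmomatic 0.33, aligned with BWA 0.7.7 to the BROAD S1 stickleback genome (Ensembl 78) and counted with bedtools 2.23.0. The members and lists were chosen with earlier results of these data known. CPM used the column total. Tests used edgeR 4.0.16 (R 4.3.3) on the counts, with TMM, filterByExpr, a quasi-likelihood fit of 9 group means over 51 libraries and Benjamini-Hochberg adjustment over 20011 genes, called under 0.1. Standard errors are not given by that test and were taken as the absolute log2 fold change over the square root of its F statistic. DESeq2 1.42.0 was an alternative. Tested on simulated counts, 94% of 100 altered genes (log2 of 1, courting male against control) and 93% of 100 with a trend were called, and 12.1% and 8.82% of the calls were false. Altered genes were drawn from all tested genes, and the treatment contrast was pooled over the populations. These rates therefore do not describe comparisons within 1 population, nor members of low and variable level. Named were the 12 highest scores, the 3 genes on each side of the limit, members called for treatment or trial, and the 3 largest and smallest SDs; ENSGACG00000010774 and others were named after their values were seen. Planned gene lists, cell type markers, genome neighbours and their tests were not run, since no identifier matched the annotation. Replicates are separate fish.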

Additional observations from a re-analysis of the deposited data

Results flagged for a closer look

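In groups of 4 to 10 libraries, a library was picked out where its gap to the nearest other took most of the range of the group (Dixon's 95% limit). Of 36 groups looked at, 4 were, and chance gives about 1 in 20 for a single look. The 36 are the same 9 groups of population and treatment looked at on overlapping measures. They are not independent, so the count is not read against that rate. Among Priest limnetic social controls, trial 72 was highest, at 2.82 on the mean log2(CPM + 0.5) of the 80 genes and 3.64 on that of the 29 covarying genes. For ENSGACG00000020956, the Priest limnetic fish of trial 18 had 2.46 CPM among those with a heterospecific male, and the Paxton limnetic fish of trial 55 had 1.84 CPM, below the others with a conspecific male.

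In the libraries outside the comparisons, 3 members exceeded all 51 kept libraries. The library labelled Paxton benthic, trial 83, had 15.7 CPM of ENSGACG00000002933, where the highest kept library had 7.73 CPM, and 232 CPM of ENSGACG00000017701, where the highest had 201 CPM. The library labelled Priest limnetic, trial 9, had 3.32 CPM of ENSGACG00000013478, level with the highest kept library.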

How the results depend on the processing

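Of the 80 genes, 77 were chosen again with TMM-scaled libraries, 78 with DESeq2 size factors, 67 with all 53 libraries and 75 without trial 72, but 53 with a pseudocount of 2 CPM, 39 with a minimum of 5 CPM and 25 with no limit on the Paxton difference. With 1 library left out, 67 to 78 were. The median log2 difference of the 80 ran from 0.62 (pseudocount 2 CPM) to 0.94 (without trial 72), and from 0.86 to 0.94 with 1 library left out. Members called between treatments within populations numbered 1, and 3 with DESeq2, 0 with all 53 libraries, 2 without trial 72 and 2 with trial number as a covariate, or 0 (without the Priest conspecific fish of trial 68) to 2 with 1 library left out. For the lake difference DESeq2 called 1 and leaving out 1 library gave 0 to 1. Both pooled treatment tests stayed at 0, also with 1 library left out. Trends numbered 11, and 7 with all 53 libraries or 6 to 12 with 1 left out, and 4 members were called in every setting. edgeR's newer fit, an alternative chosen after seeing the data, gave 1 member for treatment and 12 for trend. The causes of these shifts were not tested. Shares over all genes are not given for DESeq2 or the other settings, so these member counts are not read against a background. No paired analysis was possible because trial numbers were not shared between groups, apart from 89 in the titles of 2 Paxton benthic libraries, whose codes give 88 and 89. The tests planned for named lists and genome neighbours were not run. A level of 1 CPM stands for 23.85 to 52.79 reads, so low members carry more counting error.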
